A study of Mus musculus with 9 samples.

Results

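The gut of mice returned to a complete diet after tryptophan and niacin deficiency was compared with the gut of mice still on the deficient diet. The refed condition, called 2KR in the labels, had the deficient diet up to day 28 and a normal diet up to day 33, when its intestinal tract was taken. The deficient condition, 2K, was taken at day 28 with no return to normal diet. Each side is 1 library, so these are 2 of the 9 libraries of the series. The pair without a diet change is RR (normal diet, day 33) and R (normal diet, day 28). All of these mice, R and RR included, drank dextran sulfate sodium (DSS), an irritant used to model inflammatory bowel disease, from day 18. Methionine-deficient mice (1KR refed, 1K deficient), mice deficient in methionine, tryptophan and niacin (3KR refed, 3K deficient) and a control without DSS on normal diet (C, day 34) make up the other libraries. The labels do not say how many mice a library holds, which stretch of the intestine was taken, or the strain, sex or age, and 2KR and 2K differ in day as well as in diet, so diet and day cannot be told apart within the pair. Genes with at least 1 FPKM (fragments per kilobase, a level scaled for transcript length and library size) in 2KR or 2K were compared, which kept 18395 of 55468 genes. The measure is the difference of log2(FPKM + 0.5), 2KR minus 2K, called the log2 difference here, and it carries no test and no error because there are no replicates. It understates the difference of genes with low FPKM. Gene coordinates are on GRCm38. Just inside the 1 FPKM floor were Kcna2 (0.657 FPKM in 2KR, 1.002 in 2K) and Myl4 (0.835 in 2KR, 1.002 in 2K), and just outside it were Tnfrsf17 (0.998 in 2KR, 0.064 in 2K) and Csdc2 (0.639 in 2KR, 0.998 in 2K).

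Tryptophan is an essential amino acid taken up in the small intestine by neutral amino acid transporters. It is used for protein, for serotonin in enterochromaffin cells, and for kynurenine, whose breakdown leads in liver to nicotinamide adenine dinucleotide (NAD), the redox cofactor. Niacin (nicotinic acid and nicotinamide) feeds NAD through separate salvage steps, so lack of both nutrients removes the dietary sources of NAD, as in pellagra with its diarrhoea. The gut lining renews itself from stem cells at the crypt base, beside Paneth cells that secrete antimicrobial peptides, and both DSS and poor nutrition are known to disturb that renewal.

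The 9 libraries had between 15908 (2KR) and 17256 (R) genes at 1 FPKM or more, with 17053 in 2K. Small RNAs made up between 14.2% (2K) and 50.2% (3KR) of the summed FPKM, and 24.9% in 2KR. The table holds no counts. Low FPKM values lie close to steps of 1 fragment, and from these steps 2KR was estimated at 34.3 M fragments (M, mega) and 2K at 25.6 M, with the other libraries between 15.6 M (3KR) and 33.1 M (1KR). Villin, Vil1, a marker of intestinal epithelium, was at 771 FPKM in 2KR and 151 in 2K.

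Of the 18395 genes, 2485 (13.5%) were at least 2-fold higher in 2KR than in 2K and 3498 (19%) at least 2-fold lower. With a 4-fold threshold, 824 were higher and 1238 lower. Among 13678 protein-coding genes, 1712 were higher and 2291 lower, and among 4717 genes of other types 773 were higher and 1207 lower. RR against R, which differ in day and in library but not in diet, had 975 of 18003 genes higher (5.42%) and 953 lower (5.29%). Rescaling each library to a common sum that leaves out small RNAs, mitochondrial genes and genes of neighbouring organs turned that split into 773 higher and 1413 lower, and moved the median of all genes in RR against R to -0.22, against -0.05 as deposited. The same rescaling left 2KR against 2K at 2440 higher and 3523 lower. Refed and control gut at day 33 were the closest of the 6 pairs compared, with 455 of 17035 genes (2.67%) higher and 626 (3.67%) lower in 2KR than in RR, or 6.35% either way.

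**Figure D1:**
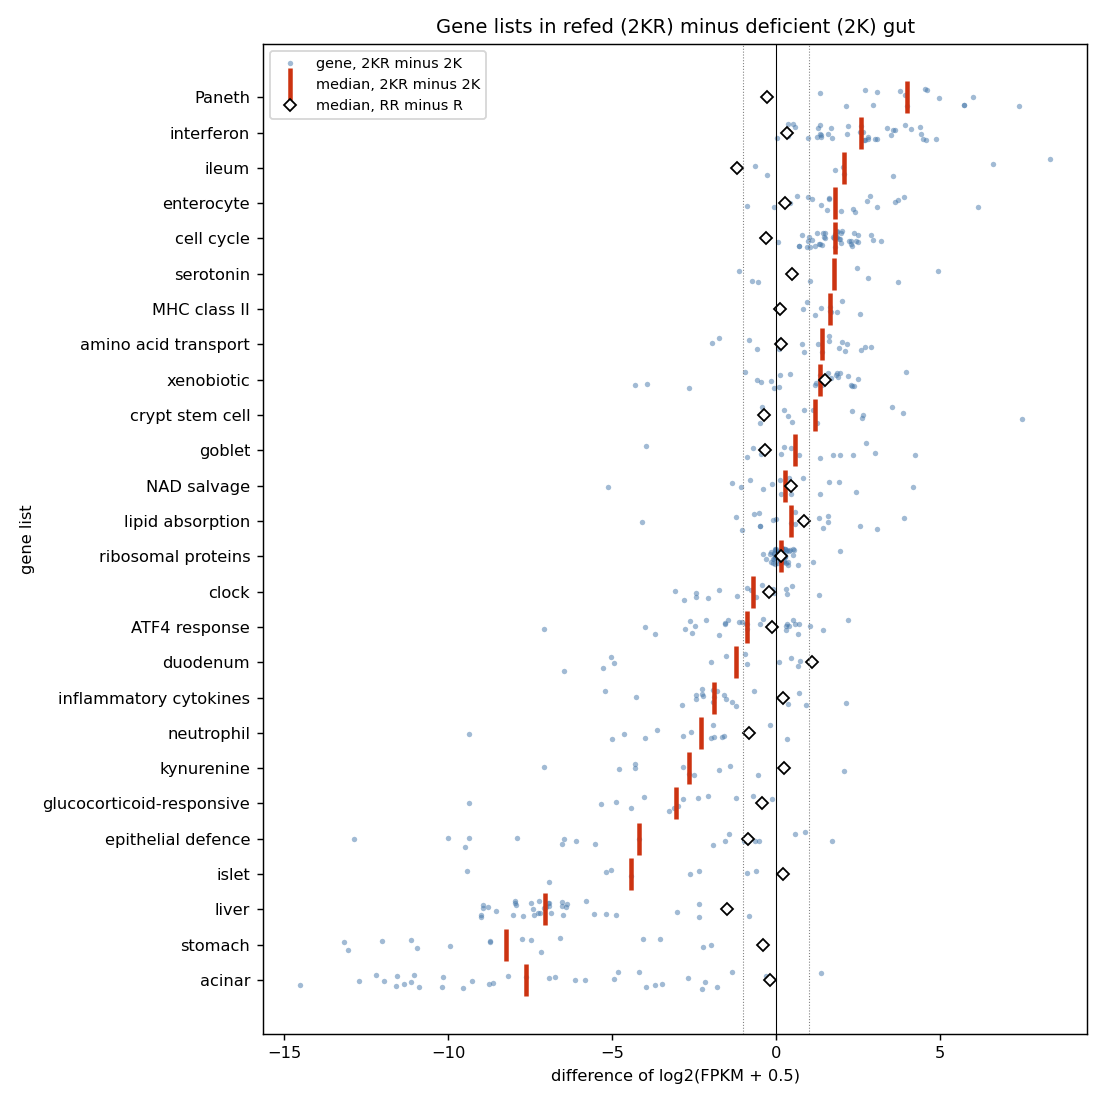
Differences of log2(FPKM + 0.5) for the genes of 26 gene lists (rows), 2KR minus 2K, with 1 point a gene. The red bar is the list's median in 2KR minus 2K and the diamond its median in RR minus R. Paneth, interferon and cell cycle medians lie at 3.98, 2.59 and 1.79, and acinar, stomach and liver medians below -7.

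The deficient library 2K stood apart in its levels of genes typical of pancreas, stomach and liver. Pancreatic acinar genes made up 0.106% of the summed FPKM in 2KR and 7.72% in 2K. Stomach genes made up 0.000436% in 2KR and 2.46% in 2K, and liver genes 0.0676% in 2KR and 7.51% in 2K. Only 3K, with 10.3% acinar genes, also exceeded 1% for any of these lists, and its stomach and liver shares were 0.00967% and 0.0948%. Of the genes compared in the pair, 11 of 35 acinar and 6 of 16 stomach genes were listed at 0 in 2KR, and 0 of them in 2K. All 35 and all 16 reached 1 FPKM in 2K, whereas 13 acinar genes and 1 stomach gene did in 2KR. The 0 for 2K thus follows from the floor that chose the genes.

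The 15 genes with the largest negative log2 difference were all products of pancreas or stomach. Ctrb1, the precursor of chymotrypsin B (ENSMUSG00000031957, minus strand of chromosome 8, bases 111686519-111691010), was at 0.560 FPKM in 2KR and 24692 in 2K, a log2 difference of -14.51. Tff1, the gastric trefoil peptide, was at 0.375 FPKM in 2KR and 8134 in 2K. Pgc, which encodes the protease precursor progastricsin, was at 0.0740 in 2KR and 4846 in 2K. Gkn2, gastrokine 2, was listed at 0 in 2KR and was at 2081 FPKM in 2K. Beside these stood Reg2, Try5, Prss2, Cela2a, Cpa1, Cela3b, Pnliprp1, Cel, Gkn1, Pla2g1b and Tff2, which are pancreatic digestive enzymes or secreted proteins of pancreas and stomach. Trypsin and elastase genes have near-identical copies, so the split between Try5, Prss2 and their relatives is uncertain.

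Liver and islet genes had the same direction. Of 36 liver genes compared, 35 were at least 2-fold lower in 2KR and 0 higher (median -7.04). In RR against R 19 of 30 were lower and 0 higher (median -1.48). All 35 with a mean of at least 1 FPKM had their highest value of the 9 libraries in 2K, where the share over all genes was 17.2%. The level in 2K enters that mean, so the filter itself favours genes high in 2K. In 2K 36 liver genes reached 1 FPKM, and in the other libraries between 13 (1K) and 33 (C). Alb, albumin, was at 72.9 FPKM in 2KR, 15459 in 2K, 3.36 in RR and 85.3 in R. The refed library was thus above RR for albumin, and 17 of 29 liver genes were at least 2-fold higher in 2KR than in RR. Acinar genes had 33 of 35 lower and 1 higher, stomach genes 16 of 16 lower, and islet genes 7 of 9 lower, with Ins2, insulin, listed at 0 in 2KR and at 342 FPKM in 2K. All 9 islet genes reached 1 FPKM in 2K and 2 did in 2KR. A gene that reaches the floor only in 2K is bound to be lower in 2KR, so these counts lean that way. The part of these organ transcripts in the lists below was not tested except where a level without them is given, and fewer cells of a type and less RNA per cell cannot be told apart in bulk tissue.

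**Figure D2:**
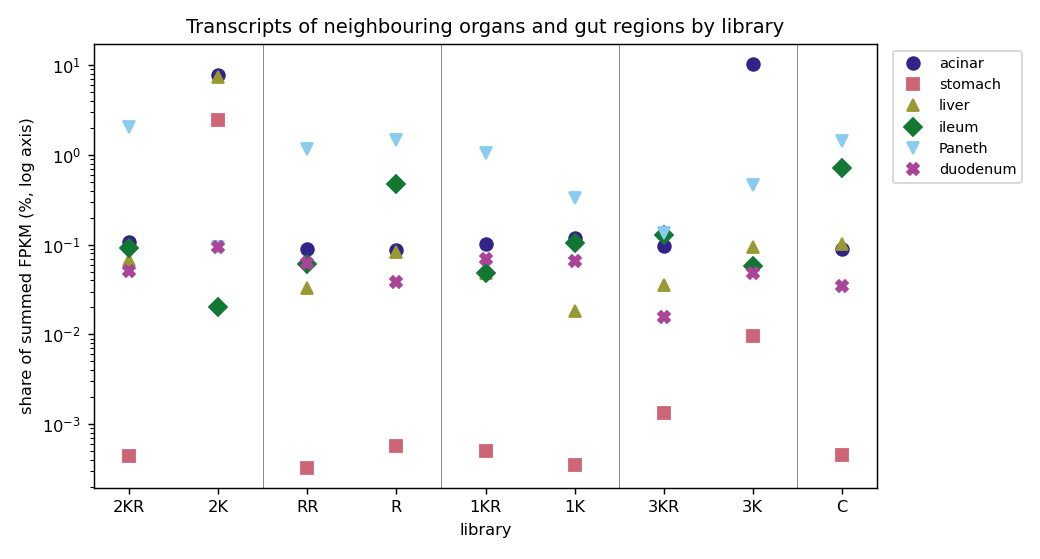
Share of the summed FPKM (percent, log axis) held by 6 gene lists in each of the 9 libraries (x axis). The acinar, stomach and liver shares of 2K were 7.72%, 2.46% and 7.51%, and its Paneth share, 0.0945%, was the lowest of the 9.

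Uptake of tryptophan and other amino acids was the first step examined. Of 19 transporter genes compared, 11 were higher in 2KR by 2-fold or more and 2 lower (median 1.39), and in RR against R the median was 0.14. Slc6a19, which encodes B0AT1, the main apical carrier of tryptophan and other neutral amino acids (ENSMUSG00000021565, minus strand of chromosome 13, bases 73679745-73704865), was at 317 FPKM in 2KR, 182 in 2K, 402 in RR and 294 in R, a log2 difference of 0.80 that stays under 2-fold. The deficient library was the lowest of the pair and its controls.

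Peptide and aromatic amino acid carriers had larger gaps. Slc15a1, PepT1, which carries di- and tripeptides, was at 383 FPKM in 2KR, 57.5 in 2K, 468 in RR and 396 in R. Slc16a10, the basolateral carrier of aromatic amino acids, was at 72.9 in 2KR, 19.0 in 2K, 117 in RR and 53.3 in R. For each of these carriers 2K was the lowest of the pair and its controls. Slc7a5, LAT1, a large neutral amino acid exchanger of growing cells, went the other way, at 2.90 FPKM in 2KR and 12.6 in 2K, as did Slc38a2, a glutamine carrier, at 27.2 in 2KR and 91.7 in 2K. No transporter of the 19 compared was 2-fold apart between 2KR and RR.

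Of the 11 kynurenine pathway genes compared, 9 were at least 2-fold lower in 2KR and 1 higher (median -2.64), against 19% and 13.5% of all genes. In RR against R none of 8 was 2-fold apart. Aadat, Qprt and Acmsd were under 1 FPKM in 2KR, RR and R. They passed the floor only through 2K, were thus bound to be lower in 2KR, and are not among the 8. Most of the lower genes encode enzymes typical of hepatocytes. Tdo2, tryptophan dioxygenase, the liver's entry enzyme (ENSMUSG00000028011, minus strand of chromosome 3, bases 81957090-81976202), was at 1.31 FPKM in 2KR and 242 in 2K, and between 0.776 and 2.29 in the other libraries. Haao, which makes quinolinate's precursor, was at 1.09 in 2KR and 43.2 in 2K. Qprt, which turns quinolinate into the NAD precursor nicotinic acid mononucleotide, was at 0.205 in 2KR and 13.4 in 2K. Kmo, Kynu, Kyat3, Aadat, Afmid and Acmsd, enzymes of kynurenine hydroxylation, cleavage, transamination, formation and picolinate branching, were at 0.0420 to 5.82 FPKM in 2KR and at 1.53 to 38.9 in 2K. The liver list was at 0.0676% of summed FPKM in 2KR and 7.51% in 2K. In RR against R, 19 of 30 liver genes were at least 2-fold lower and 0 of 8 kynurenine genes were. In 2KR against RR, 17 of 29 liver genes were at least 2-fold higher, and of 8 kynurenine genes 0 were higher and 1 lower. The source of the kynurenine pathway transcripts was not tested.

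The exception was Ido1, indoleamine dioxygenase, the entry enzyme outside liver and a target of interferon (ENSMUSG00000031551, minus strand of chromosome 8, bases 24584136-24597009). It was at 3.06 FPKM in 2KR and 0.345 in 2K, a log2 difference of 2.08, and at 10.5 in RR and 5.21 in R. Refed gut was therefore above deficient gut but below both controls, with a log2 difference of -1.62 to RR. Kyat1, a kynurenine aminotransferase, was under 2-fold, at 11.8 FPKM in 2KR and 17.7 in 2K.

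NAD salvage genes went both ways. Of 16 compared, 5 were higher in 2KR by 2-fold or more and 3 lower (median 0.27, and 0.44 in RR against R). These counts are to be read against 13.5% higher and 19% lower over all genes. Nadsyn1, NAD synthetase, the last step from nicotinic acid, was at 36.9 FPKM in 2KR, 9.34 in 2K, 38.9 in RR and 26.8 in R. Naprt, which opens the nicotinic acid route, was at 69.6 in 2KR, 27.5 in 2K, 88.2 in RR and 50.2 in R. For both, 2K was below the controls and 2KR between R and RR. Nampt, the rate-limiting enzyme of the nicotinamide route, differed little, at 48.9 FPKM in 2KR, 37.2 in 2K, 32.9 in RR and 23.6 in R.

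Slc5a8, a sodium-coupled carrier that takes up nicotinate among other monocarboxylates, was at 14.2 FPKM in 2KR, 0.312 in 2K, 9.86 in RR and 38.5 in R. It was lower in RR than in R, by a log2 difference of -1.91, so the direction without a diet change was the opposite of 4.18 in 2KR against 2K. Bst1, an NAD-cleaving ectoenzyme of Paneth and stromal cells, was at 122 FPKM in 2KR and 21.98 in 2K, and Pnp, a purine nucleoside phosphorylase, at 71.5 in 2KR and 22.8 in 2K. Nnmt, which methylates nicotinamide for disposal and is abundant in liver, was at 1.90 in 2KR and 83.0 in 2K. Among 13 NAD-consuming enzymes 3 were at least 2-fold higher and 1 lower, against 13.5% and 19% of all genes. The higher ones were Parp14 (50.6 FPKM in 2KR, 10.9 in 2K), Parp9 (55.7 in 2KR, 16.2 in 2K) and Parp3 (14.3 in 2KR, 6.03 in 2K). Parp9 and Parp14, members of the ADP-ribosyltransferase family, are interferon-responsive genes.

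Serotonin genes split by step. Of 8 compared, 5 were higher in 2KR by 2-fold or more and 1 lower (median 1.76). Tph1, the rate-limiting hydroxylase of enterochromaffin cells, was the lower one, at 3.63 FPKM in 2KR, 8.57 in 2K, 5.75 in RR and 3.34 in R. Maoa, the oxidase that breaks serotonin down (ENSMUSG00000025037, plus strand of chromosome X, bases 16619698-16687818), was at 285 FPKM in 2KR, 8.75 in 2K, 226 in RR and 116 in R. Slc6a4, the serotonin transporter of enterocytes, was at 70.8 in 2KR, 9.70 in 2K, 56.8 in RR and 47.7 in R, and Ddc, the decarboxylase, at 101 in 2KR, 17.8 in 2K, 132 in RR and 39.8 in R. Uptake and breakdown genes were thus lowest in 2K of the pair and its controls, as was Ddc, and Tph1 did not share that order. The aryl hydrocarbon receptor list, whose receptor binds tryptophan metabolites, had 1 of 7 genes higher and 3 lower, against 13.5% and 19% of all genes. Ahr was at 7.76 FPKM in 2KR and 6.63 in 2K, and Cyp1a1, its textbook target, was under the 1 FPKM floor in both.

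**Figure D3:**
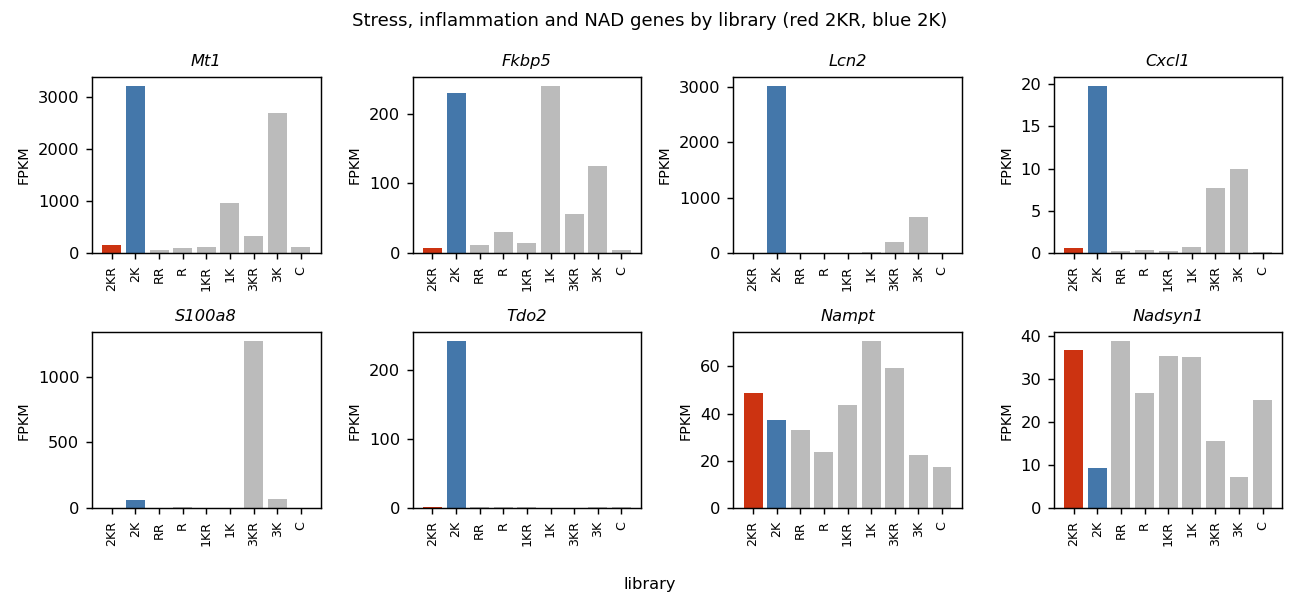
FPKM (y axis, own scale per panel) of 8 genes of stress, inflammation and NAD metabolism in the 9 libraries (x axis), 2KR in red, 2K in blue and the others in grey. Mt1, Fkbp5, Lcn2, Cxcl1 and Tdo2 were lower in 2KR than in 2K, for example Lcn2 at 4.13 in 2KR and 3026 in 2K, while Nadsyn1 was higher.

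Genes of crypt renewal were higher in refed gut. Of 43 cell cycle genes, 37 were higher in 2KR by 2-fold or more and 0 lower, all 43 had a positive log2 difference (median 1.79), and 41 had their lowest value of the 9 libraries in 2K, where the share over all genes was 17.1%. All 43 reached 1 FPKM in 2KR and 36 did in 2K. A gene that reaches the floor only in 2KR is bound to be higher there, so the count leans that way. In RR against R none of 43 was 2-fold apart and the median was -0.29. Top2a, the topoisomerase of dividing cells (ENSMUSG00000020914, minus strand of chromosome 11, bases 98992943-99024189), was at 36.3 FPKM in 2KR, 3.49 in 2K, 24.4 in RR and 33.6 in R. The refed value was at the upper end of the series, level with 35.9 in both 1KR and C, and 2K was the lowest. Mki67, the proliferation marker, was at 23.3 in 2KR, 4.11 in 2K, 14.7 in RR and 21.9 in R. Between 2KR and RR, 42 of 43 cell cycle genes were above 0 but none by 2-fold.

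Of 14 crypt and stem cell genes, 8 were higher in 2KR by 2-fold or more and 0 lower (median 1.19, and -0.38 in RR against R). All 14 reached 1 FPKM in 2KR and 10 did in 2K, so this count leans the same way. Olfm4, which marks stem cells at the crypt base (ENSMUSG00000022026, plus strand of chromosome 14, bases 79984081-80023139), was at 274 FPKM in 2KR, 1.03 in 2K, 199.98 in RR and 214 in R. It was also low in the other deficient libraries, at 3.51 in 1K and 0.916 in 3K. Lgr5, the Wnt co-receptor that defines these cells, was at 4.55 FPKM in 2KR, 0.506 in 2K, 4.15 in RR and 6.28 in R, and Ascl2, their transcription factor, was at 2.61 in 2KR and listed at 0 in 2K. Axin2, a Wnt target, was at 26.0 in 2KR, 1.79 in 2K, 17.8 in RR and 29.1 in R. Sox9, Rnf43 and Slc12a2 of the same list were under 2-fold apart, and Znrf3 and Ephb3 had negative differences under 2-fold.

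Paneth cell genes showed the largest median difference on the higher side of the 53 lists. All 15 compared were at least 2-fold higher in 2KR (median 3.98), whereas the median of RR against R was -0.28. All 15 reached 1 FPKM in 2KR and 10 did in 2K. A gene that reaches the floor only in 2KR is bound to be higher there, so the count leans that way. Of 14 with a mean of at least 1 FPKM, 10 had their highest value of the 9 libraries in 2KR against 5.33% of all genes. Lyz1, Paneth lysozyme (ENSMUSG00000069515, minus strand of chromosome 10, bases 117287797-117292868), was at 3407 FPKM in 2KR, 109 in 2K, 2048 in RR and 2149 in R. Ang4, a bactericidal ribonuclease, was at 178 in 2KR, 0.539 in 2K, 92.2 in RR and 141 in R. Pla2g2a, a secreted phospholipase that lyses bacteria, was at 2545 in 2KR, 39.3 in 2K, 1274 in RR and 2109.7 in R. All of these had their lowest value of the 9 libraries in 2K and their highest in 2KR. Among alpha-defensins, Defa24 was at 5550.0 FPKM in 2KR, 363 in 2K, 3002 in RR and 2596 in R, and Defa34 was at 68.7 in 2KR and listed at 0 in 2K. Defensin genes are near-identical, so their separate levels are uncertain. Summed over the list, Paneth genes came to 2.05% of all FPKM in 2KR and 0.0945% in 2K, beside 1.17% in RR and 1.49% in R.

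Absorptive enterocyte genes had 15 of 20 higher by 2-fold or more in 2KR and 0 lower (median 1.80, and 0.28 in RR against R). Lct, lactase (ENSMUSG00000026354, minus strand of chromosome 1, bases 128284756-128328318), was at 297 FPKM in 2KR, 3.71 in 2K, 472 in RR and 162 in R. Fabp2, the intestinal fatty acid binding protein, was at 3892 in 2KR, 259.8 in 2K, 3121 in RR and 1945 in R, and Anpep, a brush border peptidase, at 3229 in 2KR, 262 in 2K, 3220.2 in RR and 3258 in R. Not all mature genes followed: Alpi, intestinal alkaline phosphatase, was at 278 FPKM in 2KR and 516 in 2K, and Slc2a5, the fructose carrier, at 93.9 in 2KR and 97.2 in 2K. Between 2KR and RR no enterocyte gene of the 20 was 2-fold apart. Other genes among the 15 with the largest positive log2 difference were Enpp7, alkaline sphingomyelinase (554 FPKM in 2KR, 1.81 in 2K), Slc5a4b (57.9 in 2KR, 0.130 in 2K), Dnase1 (515 in 2KR, 5.64 in 2K), Aoc1, which degrades histamine (355 in 2KR, 5.92 in 2K), and the Paneth genes Defa40, Mptx1 and Mptx2.

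Goblet cell genes were mixed, with 7 of 16 higher by 2-fold or more in 2KR and 1 lower (median 0.57). Spink4 was at 925 FPKM in 2KR, 113 in 2K, 625 in RR and 627 in R. Muc2, the secreted gel mucin, was at 2538 in 2KR, 765 in 2K, 3452 in RR and 7863 in R, so the refed library stayed below both controls. The lower gene, Klk1, was at 56.1 FPKM in 2KR, 883 in 2K and 1033 in 3K, and the acinar shares of 2K and 3K were 7.72% and 10.3%. Tissue kallikrein is also made in pancreas, and the source of the Klk1 transcripts was not tested. Tuft cell genes (0 of 7 higher, 2 lower) and enteroendocrine genes (1 of 14 higher, 5 lower) did not share the direction of Paneth and enterocyte genes. Over all genes the shares were 13.5% higher and 19% lower.

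**Figure D4:**
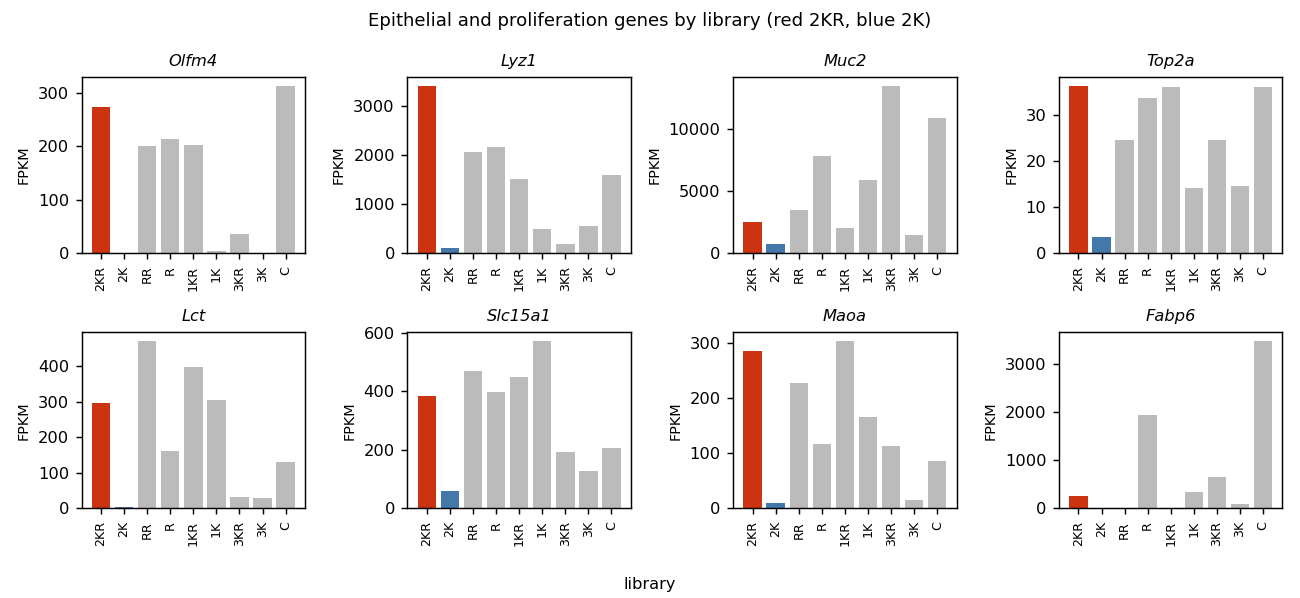
FPKM (y axis, own scale per panel) of 8 epithelial and proliferation genes in the 9 libraries (x axis), 2KR in red, 2K in blue and the others in grey. Each was higher in 2KR than in 2K, such as Olfm4 at 274 in 2KR and 1.03 in 2K, and Fabp6 was at 255 in 2KR and 1946 in R.

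Genes that mark positions along the gut also differed within the pair. Of 8 ileal genes, 6 were higher in 2KR by 2-fold or more and 0 lower (median 2.06), and of 12 duodenal genes 0 were higher and 6 lower (median -1.23). In RR against R both lists had the opposite direction, with medians of -1.20 and 1.10. Fabp6, which carries bile acids inside ileal cells (ENSMUSG00000020405, minus strand of chromosome 11, bases 43596049-43601540), had the largest positive log2 difference of the pair, 8.35, at 255 FPKM in 2KR and 0.282 in 2K. It was at 2.90 in RR, 1946 in R, 0.545 in 1KR, 342 in 1K, 658 in 3KR, 88.6 in 3K and 3486 in C, so neither refed and deficient libraries nor day 33 and day 28 libraries separated. Cubn, the cobalamin receptor, was at 78.6 FPKM in 2KR, 0.304 in 2K, 182 in RR and 283 in R, and its partner Amn at 55.3 in 2KR, 4.25 in 2K, 49.4 in RR and 45.1 in R. Duodenal genes included Cybrd1, an iron reductase, at 2.06 FPKM in 2KR and 97.9 in 2K, Slc40a1, ferroportin, at 4.39 in 2KR and 150.4 in 2K, and Pdx1, a transcription factor of duodenum and pancreas, at 0.194 in 2KR and 22.015 in 2K. The duodenal factor Gata4 was level, at 68.5 in 2KR and 63.9 in 2K. The stretch of gut sampled is not in the labels, and its part in the epithelial differences was not tested.

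Interferon-stimulated genes were higher in refed gut than in the deficient library, and most were also higher than in the controls. Interferons act through transcription factors that bind the interferon-stimulated response element in promoters. Of 38 genes compared, 32 were at least 2-fold higher in 2KR than in 2K and 0 lower, and all 38 had a positive log2 difference (median 2.59, and 2.58 after the rescaling that leaves out organ genes). All 38 reached 1 FPKM in 2KR and 32 did in 2K, and a gene at the floor only in 2KR is bound to be higher there. In RR against R, 4 of 37 were higher and 0 lower (median 0.33). Of 37 with a mean of at least 1 FPKM, 30 had their highest value of the 9 libraries in 2KR, where the share over all genes was 5.33%.

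Isg15, a ubiquitin-like antiviral protein (ENSMUSG00000035692, minus strand of chromosome 4, bases 156199424-156200818), was at 89.0 FPKM in 2KR, 2.57 in 2K, 13.6 in RR and 3.41 in R. It was at 25.4 in 1KR, 4.09 in 1K, 2.29 in 3KR, 3.55 in 3K and 7.5 in C, so 2KR was far above all others and 1KR came next. Oasl2, an oligoadenylate synthetase-like protein, was at 170.4 FPKM in 2KR, 6.66 in 2K, 29.0 in RR and 16.1 in R. Oas1a, which makes the activator of the antiviral ribonuclease L, was at 58.9 in 2KR, 2.27 in 2K, 8.39 in RR and 4.41 in R. Ifit1, which holds back foreign RNA, was at 78.3 in 2KR, 5.90 in 2K, 9.38 in RR and 4.38 in R. For each of these genes 2KR was the highest of the 9 libraries and 1KR the second.

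Regulators were higher as well. Irf7, the factor that amplifies type I interferon (ENSMUSG00000025498, minus strand of chromosome 7, bases 141262706-141266481), was at 273 FPKM in 2KR, 25.8 in 2K, 61.1 in RR and 34.1 in R. Usp18, a negative regulator of the receptor, was at 36.0 in 2KR, 5.35 in 2K, 5.29 in RR and 4.72 in R. Irf9 was under 2-fold, at 32.4 in 2KR and 22.4 in 2K. Nucleic acid sensors were among the higher genes, with Zbp1 at 41.2 FPKM in 2KR and 4.68 in 2K and Ddx58, RIG-I, at 52.0 in 2KR and 10.9 in 2K. Among guanylate-binding proteins, Gbp3 was at 10.9 in 2KR and 1.44 in 2K, whereas Gbp2, at 8.59 in 2KR and 4.17 in 2K, and Gbp5, at 2.503 in 2KR and 1.51 in 2K, were under 2-fold. Ifng itself was at 0.165 FPKM in 2KR and listed at 0 in 2K.

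The excess of 2KR was seen against each other library. The list median of 2KR minus another library was 1.36 against RR (24 of 38 higher by 2-fold or more, 0 lower), 0.81 against 1KR (17 higher, 0 lower), 1.94 against C and 2.12 against R. Oas2, Ifit3 and Ifit1bl1 were among the 10 genes with the largest positive difference between 2KR and RR. Oas2 was at 19.1 FPKM in 2KR and 1.502 in RR, Ifit3 at 19.1 in 2KR and 1.73 in RR, and Ifit1bl1 at 57.2 in 2KR and 3.42 in RR. Ifit3 and the Oas1 genes have close copies, so reads may be split among them.

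Promoters of interferon genes are shown because they carry the element that the responding factors read. The windows are the 250 bases before the start of transcription, from RefSeq on GRCm38.p6, written 5′ to 3′ along the gene: Isg15 (chr4:156200819-156201068, minus strand), Ifit1 (chr19:34640639-34640888, plus strand), Ifit3 (chr19:34583279-34583528, plus strand) and Rsad2 (chr12:26456453-26456702, minus strand), the last being viperin, at 24.7 FPKM in 2KR and 3.67 in 2K. Capitals mark each match to the core of that element, GAAA, any 2 bases, GAAA (or, on the other strand, TTTC, any 2 bases, TTTC), and overlapping matches run together.
Isg15: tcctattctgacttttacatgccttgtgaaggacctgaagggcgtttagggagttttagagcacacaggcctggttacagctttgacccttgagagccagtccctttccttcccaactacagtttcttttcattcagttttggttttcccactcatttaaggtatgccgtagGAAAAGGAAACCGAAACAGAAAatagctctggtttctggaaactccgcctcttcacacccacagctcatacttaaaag
Ifit1: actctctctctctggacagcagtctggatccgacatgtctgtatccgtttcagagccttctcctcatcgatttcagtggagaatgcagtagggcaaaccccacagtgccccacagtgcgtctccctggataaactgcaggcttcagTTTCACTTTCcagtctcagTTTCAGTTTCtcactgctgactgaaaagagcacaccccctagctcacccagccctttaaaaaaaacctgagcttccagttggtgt
Ifit3: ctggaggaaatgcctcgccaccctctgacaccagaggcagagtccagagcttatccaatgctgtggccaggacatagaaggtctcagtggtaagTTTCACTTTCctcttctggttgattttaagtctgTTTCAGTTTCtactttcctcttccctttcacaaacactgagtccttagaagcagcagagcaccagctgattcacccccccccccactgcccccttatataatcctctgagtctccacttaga
Rsad2: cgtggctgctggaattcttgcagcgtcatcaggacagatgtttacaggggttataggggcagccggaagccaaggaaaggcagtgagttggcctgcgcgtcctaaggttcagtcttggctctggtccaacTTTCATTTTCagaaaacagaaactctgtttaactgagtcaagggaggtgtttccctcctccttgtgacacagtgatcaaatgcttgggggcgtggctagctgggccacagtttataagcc
Isg15 had 3 overlapping matches, Ifit1 and Ifit3 had 2 each and Rsad2 had 1. Of 28 list genes with a window in RefSeq, 17 (60.7%) held a match, against 936 of 27025 genes with a window (3.46%). The list was chosen for response to interferon, which acts through this element, so the excess describes the list and not 2KR. The 4 windows shown all hold a match. Oasl2 and Irf7, with log2 differences of 4.58 and 3.38, held none, and Tgtp1, at 0.02, did. Whether matches go with the log2 difference was not tested. A match is a description of the letters and not a bound site. A cell cycle element, TTTGAA or TTCAAA, was found in 8 of 35 cell cycle genes (22.9%) and in 18.3% of all genes with a window, so no set is shown for it.

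**Figure D5:**
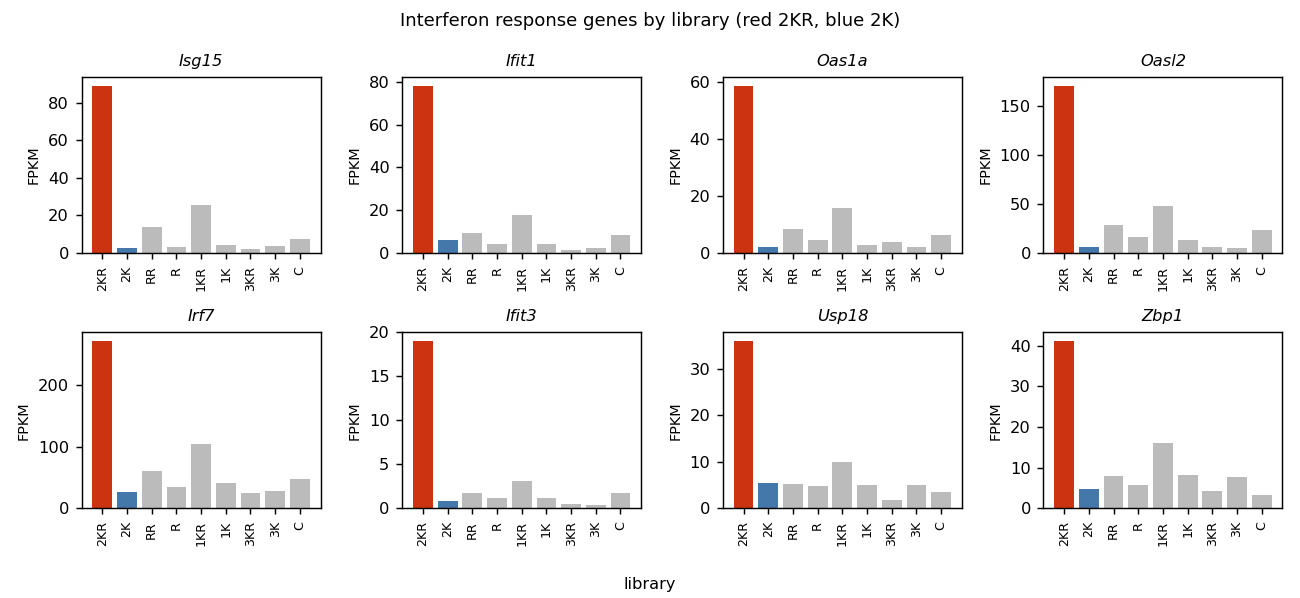
FPKM (y axis, own scale per panel) of 8 interferon response genes in the 9 libraries (x axis), 2KR in red, 2K in blue and the others in grey. 2KR was the highest library in all panels and 1KR the second, with Isg15 at 89.0 in 2KR and 25.4 in 1KR.

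Antigen presentation genes were higher in 2KR than in 2K. For MHC class II, which shows peptides to CD4 T cells, 8 of 10 genes were above 2K by 2-fold or more and 0 lower (median 1.64, and 0.13 in RR against R). H2-Ab1 was at 79.4 FPKM in 2KR, 21.8 in 2K, 100.1 in RR and 83.3 in R, and its transactivator Ciita at 4.48 in 2KR, 1.09 in 2K, 6.15 in RR and 8.04 in R. For class I, 11 of 19 were higher and 1 lower (median 1.07, and 0.60 in RR against R), with B2m, the shared light chain, at 2187 FPKM in 2KR, 789.7 in 2K, 1412 in RR and 1040.4 in R. Class II genes of 2KR were near the controls, while B2m of 2KR was the highest of the 9 libraries. Class I heavy chain genes are alike in sequence and their separate levels are uncertain.

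Lymphocyte lists differed in how many genes were higher, to be read against 13.5% higher and 19% lower over all genes. B cell genes had 7 of 18 higher by 2-fold or more and 1 lower (median 0.75), and T and NK cell genes had 5 of 19 higher and 0 lower (median 0.75), against 9 of 21 higher and 0 lower in RR against R (median 0.93). Plasma cell genes went both ways, with 6 of 14 higher and 3 lower. Igha, the IgA heavy chain, was at 873 FPKM in 2KR, 176 in 2K, 1109.6 in RR and 882 in R, and Gzmb, granzyme B of cytotoxic cells, at 8.38 in 2KR, 1.46 in 2K, 13.4 in RR and 3.12 in R. The deficient library was lowest for both, and 2KR was below RR in 20 of 21 T and NK genes, 1 of them by 2-fold.

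Inflammatory genes were lower in refed gut. Of 14 neutrophil genes, 12 were at least 2-fold lower in 2KR and 0 higher (median -2.30), and in RR against R 4 of 9 were lower and 0 higher (median -0.82). Of 21 cytokine and chemokine genes 16 were lower and 1 higher (median -1.91). In RR against R 12 genes of this list were compared, with a median of 0.20. Neutrophil genes at 1 FPKM or more numbered 14 in 2K and 8 in 2KR, and cytokine and chemokine genes 19 in 2K and 8 in 2KR. A gene that reaches the floor only in 2K is bound to be lower in 2KR, so both counts lean that way. S100a8, a calprotectin subunit, was at 1.93 FPKM in 2KR, 59.5 in 2K, 1.54 in RR and 5.57 in R, and at 1273 in 3KR. Cxcl1, which draws neutrophils, was at 0.543 in 2KR, 19.8 in 2K, 0.256 in RR and 0.402 in R, and Il1b at 1.63 in 2KR, 11.1 in 2K, 2.88 in RR and 0.970 in R. For S100a8 and Cxcl1 the refed value lay near RR and R, and S100a8 of 3KR did not. The 1 higher gene was Cxcl9, an interferon-induced chemokine, at 3.70 FPKM in 2KR, 0.450 in 2K, 1.46 in RR and 1.47 in R.

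Epithelial defence genes had 13 of 19 lower by 2-fold or more and 1 higher (median -4.19), and in RR against R 8 of 17 were lower and 2 higher (median -0.86). The list holds Reg1 and Reg2, which are also products of pancreas and had log2 differences of -6.53 and -12.86, beside the acinar share of 0.106% in 2KR and 7.72% in 2K. Lcn2, lipocalin 2, which starves bacteria of iron (ENSMUSG00000026822, minus strand of chromosome 2, bases 32384633-32388252), was at 4.13 FPKM in 2KR, 3026 in 2K, 1.69 in RR and 9.72 in R. Saa1, serum amyloid A, was at 7.09 in 2KR, 5432 in 2K, 0.552 in RR and 23.2 in R, and Reg3b, a bactericidal lectin, at 901 in 2KR, 16411 in 2K, 806 in RR and 6069.8 in R. Lcn2 and Saa1 are also acute phase products of liver, and the liver share was 0.0676% in 2KR and 7.51% in 2K. Lcn2 was at 643 FPKM in 3K, where the liver share was 0.0948% and the acinar share 10.3%. The source of the Lcn2 and Saa1 transcripts was not tested. Saa1 and Saa2 have near-identical sequence. Genes of epithelial repair had 7 of 14 lower and 1 higher by 2-fold or more, and 5 of the 14 had positive log2 differences. Clu, clusterin, was at 24.4 in 2KR, 656 in 2K, 25.1 in RR and 55.2 in R, and the source of its transcripts was not tested. The higher gene, Krt19, was at 2.06 times its FPKM in 2K.

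Targets of glucocorticoid hormones were lower in refed gut, at 12 of 14 by at least 2-fold with 0 higher (median -3.05, and -0.43 in RR against R). Fkbp5, a chaperone that the glucocorticoid receptor induces (ENSMUSG00000024222, minus strand of chromosome 17, bases 28399094-28517527), was at 7.36 FPKM in 2KR, 229 in 2K, 10.9 in RR and 29.9 in R. It was also high in the other deficient libraries, at 240.2 in 1K and 125 in 3K, where acinar genes were 0.118% and 10.3% of the sum. Mt1, a metallothionein that buffers zinc, was at 149.7 in 2KR, 3224 in 2K, 67.5 in RR and 94.4 in R, with 968 in 1K and 2687 in 3K. All deficient libraries were thus above all other libraries for Fkbp5 and Mt1. Tsc22d3, another target of the receptor, was level at 52.3 FPKM in 2KR and 57.2 in 2K.

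Amino acid response genes, targets of the transcription factor ATF4, had 14 of 31 lower by 2-fold or more in 2KR and 3 higher (median -0.89, and -0.13 in RR against R). Aldh18a1, Mthfd2 and Ddit3 were higher in 2KR, at 4.70, 2.96 and 2.12 times their FPKM in 2K. Among the lower genes was Cbs, at 1.05 FPKM in 2KR and 206 in 2K. Asns, asparagine synthetase, was at 24.7 FPKM in 2KR, 50.7 in 2K, 20.3 in RR and 26.1 in R. Ddit4, a brake on the kinase mTOR, was at 17.5 in 2KR, 123 in 2K, 15.1 in RR and 19.99 in R, and Trib3, an ATF4 target, was under 2-fold at 11.5 in 2KR and 8.94 in 2K. Nupr1, also abundant in pancreas, was at 30.8 in 2KR, 496 in 2K, 503 in 3K and 7.51 in 1K. Wars, the tryptophanyl-tRNA synthetase, was at 26.8 FPKM in 2KR, 35.8 in 2K, 26.7 in RR and 32.6 in R, and 3 of 20 tRNA synthetase genes were higher and 1 lower. Clock genes had 1 of 18 higher and 7 lower, with Per1 at 20.5 in 2KR, 87.3 in 2K, 20.7 in RR and 26.9 in R. The tRNA synthetase and clock counts are to be read against 13.5% higher and 19% lower over all genes.

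Subtracting the day change from the pair, as (2KR minus 2K) minus (RR minus R), left 2887 of 19653 genes (14.7%) higher by 2-fold or more and 3556 (18.1%) lower, a difference between differences that no test accompanies. Rescaling without organ genes gave 3503 higher and 3087 lower and moved the median of all genes to 0.10, against -0.06 as deposited. By this measure the list medians were 4.10 for Paneth, 2.14 for interferon and 1.96 for cell cycle genes, and -2.80 for kynurenine genes. The largest positive value was 17.52 for Fabp6, and the largest negative ones belonged to pancreas and stomach genes and to Reg1, a secreted lectin of pancreas and proximal gut, at 32.0 FPKM in 2KR, 2994 in 2K, 244 in RR and 3.19 in R. Xenobiotic metabolism genes were higher in both pairs, with 17 of 28 higher and 3 lower in 2KR against 2K (median 1.34) and 21 of 28 higher and 0 lower in RR against R (median 1.48). Even so, 11 of 28 were at least 2-fold lower in 2KR than in RR, among them Cyp3a11, a steroid and drug hydroxylase, at 131 FPKM in 2KR, 254 in 2K, 722 in RR and 54.3 in R.

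The other refed pairs share no library with this one. In 3KR against 3K, 2520 of 18879 genes were higher (13.3%) and 2218 lower (11.7%). Genes higher in both pairs numbered 875, which is 39.1% of those higher in 2KR against 2K and 43.8% of those higher in 3KR against 3K, over genes compared in both. Genes lower in both numbered 1069, or 37.6% and 56.7% of each list. Genes opposite in direction numbered 110 (higher in 2KR against 2K) and 258 (lower). In 1KR against 1K, 1150 of 17495 genes were higher (6.57%) and 1362 lower (7.79%), or 1402 and 896 after rescaling without organ genes (median of all genes 0.10, against -0.09 as deposited). Of those higher in 2KR against 2K, 482 (20.8%) were higher in both, and of those lower 411 (17.8%) were lower in both, with 135 and 168 opposite. The pair without a diet change, RR against R, shared 300 higher (12.7%) and 224 lower (9.50%), with 137 and 145 opposite. Across 17631 genes, which are not independent of each other, Pearson's r of the log2 differences of 2KR against 2K was 0.41 with 3KR against 3K, 0.16 with 1KR against 1K and 0.14 with RR against R.

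For the lists described above, those pairs had these values. Acinar genes had a median of -7.32 in 3KR against 3K (0 of 35 higher, 35 lower), the same direction as in 2KR against 2K, and islet genes -3.04. Interferon genes had a median of 0.03 in 3KR against 3K (0 of 33 higher, 3 lower) and 0.94 in 1KR against 1K (17 of 38 higher, 0 lower). Paneth genes had a median of -1.54 in 3KR against 3K (0 of 13 higher, 11 lower) and 1.52 in 1KR against 1K (11 of 14 higher, 0 lower). Cell cycle medians were 0.32 and 0.73 in these pairs. Neutrophil genes were higher in 3KR than in 3K (15 of 18, 1 lower), opposite to their direction in 2KR against 2K. These contrasts between pairs were not tested, and each rests on 1 library a side.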

How the data were processed

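RNA from mouse intestinal tract was extracted with ISOGEN, depleted of ribosomal RNA and made into stranded libraries without the step that selects mRNA, per the labels' protocols. The submitters' processing notes name HISAT2 (version not given in the sources used here), Cuffdiff 2.2.1 and GRCm38. Values were used as the authors deposited them: 1 FPKM per gene and library, 55468 genes, 9 libraries. No counts are given, so fragment numbers are estimates that rest on annotated lengths. Gene IDs, types and coordinates are from GENCODE M21, which lacks 241 of the genes.

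Differences were computed as log2(FPKM + 0.5) between pairs, for genes reaching 1 FPKM on either side, and called at 2-fold, with pandas 2.3.3 on Python 3.11.15. With 1 library per condition no test was made. There are 53 lists, described by counts and medians. A gene that reaches the floor in only 1 library of a pair is bound to be higher in that library. List counts therefore lean toward the library where more members reach the floor. Those of 2KR against 2K are to be read against 13.5% higher and 19% lower over all genes. Members and lists were chosen with earlier results of these data known. Named genes were the 15 largest each way among those at 5 FPKM or more in either library, 10 each way for the difference of changes and for 2KR minus RR, up to 6 per list, and all members of the kynurenine, NAD salvage, serotonin and amino acid transport lists. Other list members named in the text were chosen after their values were seen. The scripts were tested on simulated data. Alternatives were pseudocounts of 0.1 and 1, no floor or a floor of 5 FPKM, a 4-fold threshold, leaving out organ genes, median-of-ratios scaling over 7809 genes, and scaling to a sum without small RNAs, mitochondrial and organ genes.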

Additional observations from a re-analysis of the deposited data

Results flagged for a closer look

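Some genes and lists had opposite directions in 2KR against 2K and in RR against R. None of these differences was tested, since each pair is 1 library a side. Fabp6 had a log2 difference of 8.35 in 2KR against 2K and -9.16 in RR against R, which are 17.52 apart. Naaladl1, an ileal brush border peptidase, was at 522 FPKM in 2KR, 3.17 in 2K, 434 in RR and 1059.5 in R, which puts the log2 differences 8.44 apart. Slc34a2, a phosphate carrier, was at 43.9 FPKM in 2KR, 0.337 in 2K, 26.8 in RR and 158 in R, and its log2 differences were 8.27 apart. The ileal list median was 3.25 higher in 2KR against 2K than in RR against R. The duodenal list median was lower by the same measure, at -2.34.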

How the results depend on the processing

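Raising the floor to 5 FPKM gave 3733 genes at least 2-fold apart in 2KR against 2K (5983 as reported), 1112 in RR against R (1928), 1364 in 1KR against 1K (2512), 2749 in 3KR against 3K (4738), 550 in 2KR against RR (1081) and 3428 in 2K against R (5494). A 4-fold threshold gave 2062, 556, 690, 1409, 409 and 1926 in the same order. Both changes shorten the lists by their construction. Pseudocounts, no floor, leaving out organ genes and both scalings kept each of these counts within 1.5 times. Under the pseudocounts and scalings none of the 361 named genes and no list median past 2-fold changed direction in 2KR against 2K, while the NRF2 and glutathione median, 0.03, was -0.04 under median-of-ratios scaling. Under median-of-ratios scaling the all-gene median was -0.17 in 2KR against 2K and -0.15 in RR against R, and the scaling took the MHC class I median to 1.00, just under 2-fold. Of 53 lists, 24 had a median past 2-fold (11 higher, 13 lower), against 26 with a pseudocount of 0.1, which added plasma cell (1.15) and neuron and glia genes (-1.03). A pseudocount of 1 left 21 (11 higher, 10 lower), without epithelial repair (-0.93), colon (-0.98) and membrane mucin genes (-0.95). The interferon median in 2KR was also computed against each other library, a choice made after seeing the data, and was lowest against 1KR, at 0.81.

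No paired analysis was possible because each condition has 1 library. Leaving out a library was not possible for the same reason, no spread between animals is known, and every fold describes these libraries. Depth is only estimated, so no counting interval is given. The part of the organ genes of 2K in the lower lists was not tested.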

Other observations

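Smooth muscle, heat shock and cholesterol genes were not described above. Counts here are to be read against 13.5% higher and 19% lower over all genes. Of 15 smooth muscle genes, 5 were at least 2-fold higher in 2KR than in 2K and 0 lower (median 0.66). Their lowest value of the 9 libraries was in 2K for 14 of 15, where the share over all genes was 17.1%. Actg2, gamma smooth muscle actin, was at 143 FPKM in 2KR, 62.6 in 2K, 129 in RR and 195 in R. Heat shock genes had 4 of 15 higher and 2 lower, with Hsph1, a cochaperone, at 25.9 FPKM in 2KR and 6.77 in 2K, and Hspb8, a small heat shock protein, at 7.78 in 2KR and 63.0 in 2K. Cholesterol synthesis genes had 3 of 23 higher, near the share over all genes, and 2 lower. Endothelial genes had 0 of 15 higher and 4 lower (median -0.78), with Lyve1, a lymphatic marker, at 5.78 FPKM in 2KR and 21.2 in 2K. Ribosomal protein genes were nearly level, with 2 of 60 higher, 0 lower and a median of 0.16. Of 3 red cell genes compared, 0 were higher and 1 lower, with Hbb-bs, beta globin, at 22.1 FPKM in 2KR and 20.5 in 2K.

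PPAR target and fat oxidation genes had 2 of 19 higher by 2-fold or more in 2KR and 7 lower (median -0.48), whereas RR against R had 6 of 18 higher and 0 lower. Over all genes 13.5% were higher and 19% lower in 2KR against 2K, and 5.42% and 5.29% in RR against R. Pdk4, which turns off pyruvate dehydrogenase in fasting, was at 21.6 FPKM in 2KR, 212 in 2K, 42.1 in RR and 17.2 in R. Pdk4 was high in all deficient libraries, at 151 FPKM in 1K and 165 in 3K. Lipid absorption genes went both ways, with 7 of 19 higher and 3 lower in 2KR against 2K, and 8 of 19 higher and 0 lower in RR against R. Apoa4, an apolipoprotein of chylomicrons, was at 2329.5 FPKM in 2KR, 5424 in 2K, 4439 in RR and 498 in R.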
